A study of Mus musculus with 35 samples.

Results

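The genes described here are 10 components of cytosolic RNA sensing in the mouse: the sensors Ifih1 (MDA5), Ddx58 (RIG-I) and Dhx58 (LGP2), the helicase Ddx60, the adaptor Mavs, the kinases Tbk1 and Ikbke, and the RNA-binding effectors Eif2ak2 (PKR), Adar (ADAR1) and Zbp1. They were taken from the count table by Ensembl identifier, and all 10 were found among its 53379 genes.

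MDA5 and RIG-I bind double-stranded RNA in the cytosol and pass the signal through caspase recruitment domains to MAVS on the mitochondrial membrane. MAVS recruits the kinases TBK1 and IKK-epsilon, which phosphorylate IRF3 and IRF7 and so start the transcription of type I interferon, and interferon in turn raises the transcription of many of the sensors. The treatment, poly(I:C)c, is an artificial double-stranded RNA packed with polyethylenimine so that it reaches the cytosol, where MDA5 binds it.

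RNA was sequenced from myeloid-derived suppressor cells (MDSC) of female C57BL/6 mice bearing orthotopic pancreatic tumors of T110299 cells, a single line derived from a tumor of a genetically engineered Ptf1a-Cre mouse, so that every group shared the tumor. PMN-MDSC (CD11b+ Ly6Clo Ly6G+) and M-MDSC (CD11b+ Ly6Chi Ly6G-) were sorted from spleen and tumor of mice given 50 µg poly(I:C)c on days 18 and 20 after tumor induction (treated) or glucose as control (untreated), and bulk tumor from untreated mice was lysed without sorting. Each group had 4 libraries, except 3 for treated splenic PMN-MDSC and 3 for treated tumor M-MDSC, and the mice's age is not tied to these samples in the sources used here. The columns of the table name the group but not the mouse, so libraries are called by their running number in the table (S01 to S46).

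A library of 10 counts was left out, and 34 of 35 were used. The 30 MDSC libraries held 793070 to 4357105 counts (median 2459368) and the 4 bulk tumor libraries 3771590 to 8886115, where 3 counts in the smallest library (S24, untreated tumor M-MDSC) correspond to 3.78 CPM (counts scaled to the size of the library). The neutrophil marker Ly6g was present in untreated splenic PMN-MDSC at a median of 50.8 CPM but was near 0 in untreated tumor PMN-MDSC (median 1.29 CPM). The summed level of 10 neutrophil markers was 22674 to 41100 CPM in untreated splenic and 1069 to 4521 CPM in untreated tumor PMN-MDSC, while that of 6 macrophage markers was 415 to 1303 CPM and 9749 to 13299 CPM. The untreated libraries labelled tumor PMN-MDSC thus went against the defining markers of the label, and the name is kept here only as the label of the sort. Treated tumor PMN-MDSC held Ly6g at 5.02 to 76.2 CPM (median 19.3). Their neutrophil sum was 4091 to 10333 CPM and their macrophage sum 7297 to 18599 CPM. In S31 of this group the neutrophil sum (10333 CPM) was above the macrophage sum (7297 CPM).

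The genes lie on 8 chromosomes of GRCm38 in the GENCODE M21 annotation. The sensors are Ifih1 (ENSMUSG00000026896.14, chromosome 2, 62595798 to 62646255), Ddx58 (ENSMUSG00000040296.15, chromosome 4, 40203773 to 40239828) and Dhx58 (ENSMUSG00000017830.15, chromosome 11, 100694884 to 100704271), all on the reverse strand. Ddx60 (ENSMUSG00000037921.15, chromosome 8, 61928087 to 62038244) and Mavs (ENSMUSG00000037523.13, chromosome 2, 131234063 to 131248025) lie on the forward strand. The kinases are Tbk1 (ENSMUSG00000020115.3, chromosome 10, 121546455 to 121586787) and Ikbke (ENSMUSG00000042349.13, chromosome 1, 131254343 to 131279606), both on the reverse strand. Eif2ak2 (ENSMUSG00000024079.4, chromosome 17, 78852564 to 78882573) and Zbp1 (ENSMUSG00000027514.14, chromosome 2, 173206612 to 173218923) are on the reverse strand and Adar (ENSMUSG00000027951.16, chromosome 3, 89715022 to 89753446) on the forward strand. No exon of these genes overlapped an exon of another gene on the same strand, and the authors counted by strand. On the opposite strand, exons of Adar shared 1365 bases with Chrnb2, those of Ikbke 224 with Gm28913 and Gm28914, those of Eif2ak2 221 with Gm26637 and n-R5s29, and those of Dhx58 141 with Dhx58os.

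Since many of these genes moved together with treatment, the promoters were searched on both strands for a pair of GAAA runs with any 2 bases between them, the core letters of the interferon-stimulated response element. RefSeq promoters (GRCm38.p6, 250 bases before to 50 after the start) were found for 8 of the 10 genes. Dhx58 and Zbp1 had no entry. The letters were found in 4 of the 8, Ifih1, Ddx58, Ddx60 and Eif2ak2, against 3.99% of all 27025 genes with a promoter entry and 3.44% of all 32851 promoters. They were not found in this window of Mavs, Tbk1, Ikbke or the 3 promoters of Adar. The matches are shown on the strand of the gene, 5′ to 3′, with the match in capitals and up to 20 bases on either side. They lie at chr2:62646206-62646243 (Ifih1, the match beginning 32 bases after the start), chr4:40239794-40239843 (Ddx58, 2 bases after, with the letters on the opposite strand), chr8:61928014-61928097 (Ddx60, 2 matches, 53 and 19 bases before) and chr17:78882525-78882574 (Eif2ak2, 18 bases after). A match describes letters in the window and not a bound site.
Ifih1: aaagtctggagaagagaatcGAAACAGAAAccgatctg
Ddx58: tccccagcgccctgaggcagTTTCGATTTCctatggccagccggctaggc
Ddx60: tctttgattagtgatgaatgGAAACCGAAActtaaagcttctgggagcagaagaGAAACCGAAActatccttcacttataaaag
Eif2ak2: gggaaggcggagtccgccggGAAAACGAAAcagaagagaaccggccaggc

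To ask how treatment changed the sensing pathway, treated and untreated libraries were compared within each cell type and compartment. Transcripts of the sensors, Ddx60 and the RNA-binding effectors rose in spleen in both cell types, whereas Mavs passed the test in none of the 3 comparisons in which it was tested. In splenic PMN-MDSC 8 of 9 tested genes rose and none fell, beside 6.1% of all tested genes called higher. In tumor PMN-MDSC 7 of 10 rose (background 2.29%), in splenic M-MDSC 9 of 10 (background 10.7%) and in tumor M-MDSC 2 of 10 (background 1.82%). The median log2 fold change of the genes tested was 2.25, 1.03, 1.67 and 0.81 in these comparisons, where the median of all genes tested was between -0.01 and 0.01. Among the tested genes, treated and untreated libraries did not overlap for 8 of 9, 8 of 10, 9 of 10 and 6 of 10, beside 26.3%, 12%, 25.4% and 19.4% of all tested genes. Mavs, not tested in splenic PMN-MDSC, did not overlap there either. Calls are edgeR quasi-likelihood tests at a Benjamini-Hochberg adjusted p under 0.05 over all genes tested, and fold changes are log2 of treated over untreated with the standard error.

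**Figure D1:**
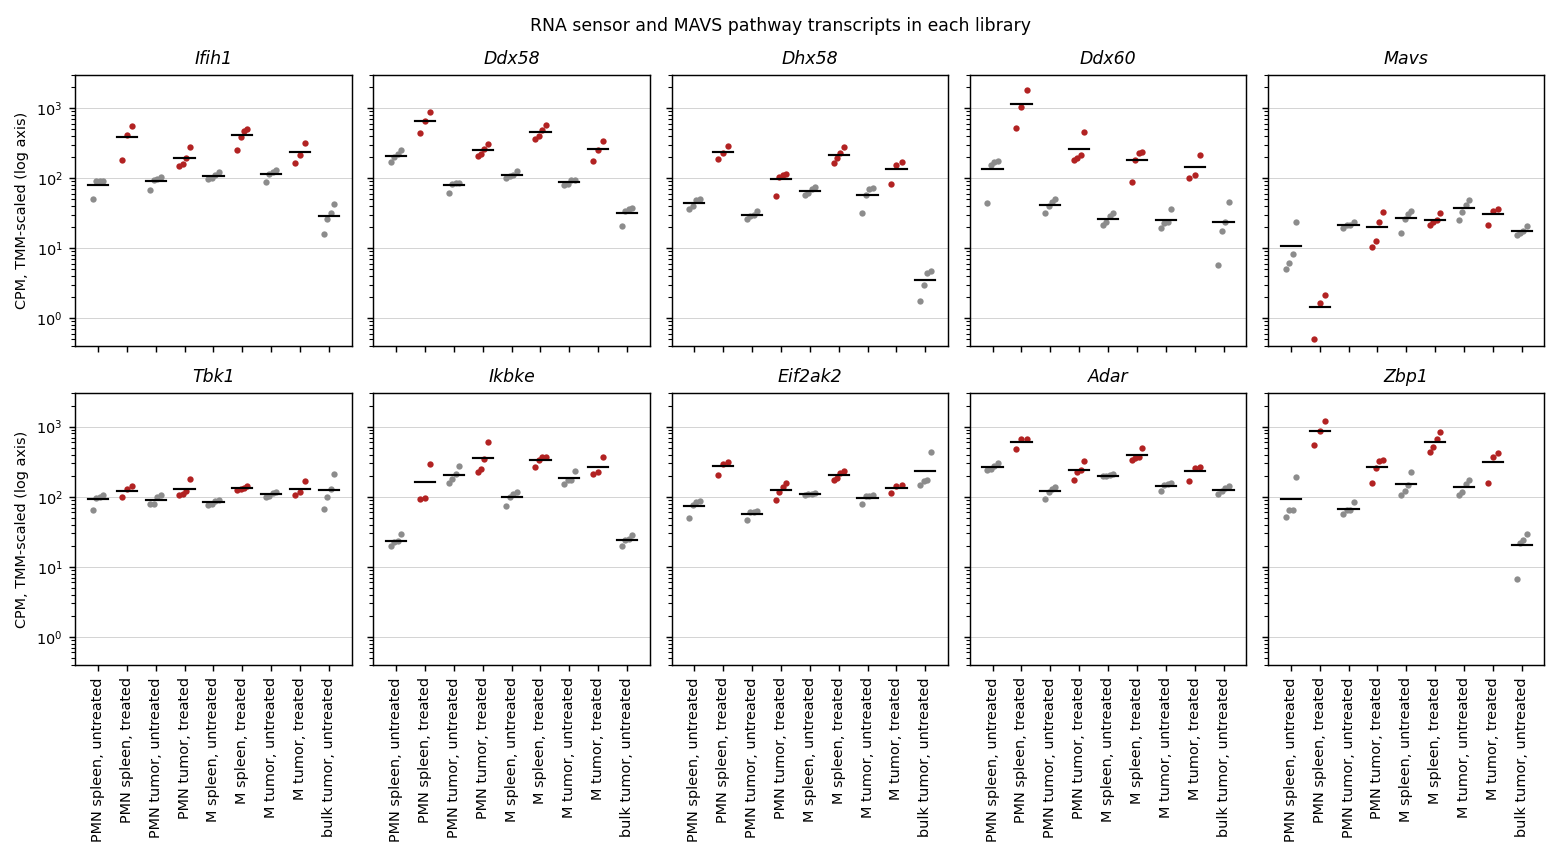
Level of the 10 genes in each of the 34 libraries, in TMM-scaled CPM on a log axis. Points are libraries (grey untreated, red treated), horizontal bars are group means, and the groups are PMN-MDSC and M-MDSC from spleen and tumor and bulk tumor. The red points stand above the grey ones for the sensors, Ddx60, Eif2ak2, Adar and Zbp1 in spleen, while Mavs in splenic PMN-MDSC goes from 5.05 to 24.004 CPM in untreated to 0.50 to 2.17 CPM in treated libraries.

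Ifih1 encodes MDA5, the sensor of long double-stranded RNA. In splenic PMN-MDSC it was at 91.8, 51.1, 90.4 and 90.2 CPM in untreated and at 184, 551 and 417 CPM in treated libraries. In splenic M-MDSC it was at 100.4, 96.3, 112 and 120.3 CPM in untreated and at 391.6, 476, 502 and 253 CPM in treated libraries. The groups did not overlap in either cell type, and Ifih1 rose by 2.25 ± 0.35 (adjusted p = 0.00739) and 1.87 ± 0.20 (adjusted p = 0.00026) on the log2 scale. In tumor PMN-MDSC it was at 105, 96.4, 93.5 and 68.4 CPM in untreated and 193, 158, 147 and 274 CPM in treated libraries, again without overlap, a rise of 1.02 ± 0.23 (adjusted p = 0.0351). In tumor M-MDSC it was at 122, 132, 113 and 88.0 CPM in untreated and 212, 165 and 318 CPM in treated libraries. These groups did not overlap either, but the difference of 0.98 ± 0.25 did not pass the test (adjusted p = 0.0678).

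Ddx58 encodes RIG-I, which binds RNA with a 5′ triphosphate. In splenic PMN-MDSC it was at 169, 249, 219 and 201 CPM in untreated and 433, 870 and 661 CPM in treated libraries. In splenic M-MDSC it was at 106, 99.99, 127 and 112 CPM in untreated and 395, 577, 488 and 361 CPM in treated libraries. Every treated library was above every untreated one in both cell types, and the log2 fold changes were 1.65 ± 0.25 (adjusted p = 0.00651) and 1.98 ± 0.16 (adjusted p = 5.95e-05). In tumor PMN-MDSC the 4 untreated libraries were at 61.5 to 86.4 CPM and the 4 treated ones at 206 to 309 CPM. In tumor M-MDSC the 4 untreated libraries were at 80.7 to 93.7 CPM and the 3 treated ones at 177 to 343 CPM. Ddx58 rose in both, by 1.58 ± 0.20 (adjusted p = 0.00149) and 1.51 ± 0.24 (adjusted p = 0.0169), and was 1 of the 2 genes called in tumor M-MDSC.

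Dhx58 encodes LGP2, a relative of both sensors that lacks the signalling domain and modulates them. In splenic PMN-MDSC it was at 36.4, 49.9, 48.1 and 39.6 CPM in untreated and 189, 231 and 286 CPM in treated libraries. The groups were far apart, and the rise of 2.45 ± 0.20 was 5.46-fold (adjusted p = 0.00118). In splenic M-MDSC it rose by 1.65 ± 0.17 (58.1 to 74.8 against 164 to 279 CPM, adjusted p = 0.000247) and in tumor PMN-MDSC by 1.63 ± 0.24 (25.9 to 34.0 against 55.3 to 115 CPM, adjusted p = 0.00332). In tumor M-MDSC it was at 31.8 to 72.2 CPM in untreated and 82.3 to 171 CPM in treated libraries, which did not overlap, and the difference of 1.18 ± 0.32 did not pass the test (adjusted p = 0.0774).

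Ddx60 encodes a helicase described as a cofactor of the sensors. It had the largest log2 fold change of the 10 genes in tumor PMN-MDSC, splenic M-MDSC and tumor M-MDSC. In splenic PMN-MDSC it was at 154, 43.8, 173 and 167 CPM in untreated and 515, 1835 and 1017 CPM in treated libraries. The spread was wide in both groups, but they did not overlap, and the rise was 3.07 ± 0.53 (8.37-fold, adjusted p = 0.010). In tumor PMN-MDSC it was at 31.7, 45.1, 50.0 and 40.2 CPM in untreated and 182, 194, 215 and 456 CPM in treated libraries, a rise of 2.58 ± 0.31 (adjusted p = 0.00149). In splenic M-MDSC it was at 21.2, 23.6, 29.2 and 31.9 CPM in untreated and 179, 87.9, 227 and 233 CPM in treated libraries, a rise of 2.73 ± 0.31 (adjusted p = 0.00046). The untreated libraries of tumor M-MDSC were at 36.0, 19.5, 23.3 and 23.2 CPM and the treated ones at 101, 110 and 217 CPM, a rise of 2.44 ± 0.33 (adjusted p = 0.0102). Treated libraries lay above untreated ones in all 4 comparisons.

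Mavs is the adaptor on which both sensors converge. Its log2 fold change was -0.15 ± 0.33 in tumor PMN-MDSC (95% interval -0.87 to 0.58), -0.11 ± 0.22 in splenic M-MDSC (-0.61 to 0.38) and -0.31 ± 0.31 in tumor M-MDSC (-1.002 to 0.38), and none of these passed the test (adjusted p = 0.856, 0.754 and 0.637). In splenic PMN-MDSC Mavs was below the mean of 25 counts required for the test. There the untreated libraries held 85, 10, 13 and 23 counts (24.004, 6.08, 5.05 and 8.36 CPM) and the treated ones 2, 4 and 1 counts (1.65, 2.17 and 0.50 CPM), so that every treated library was below every untreated one. Summed over libraries this was 131 against 7 counts, 8.98-fold lower with treatment (95% interval 4.24 to 22.8, counting error only). Library S01 held most of the untreated counts, and without it the ratio was 4.76-fold lower (2.13 to 12.5). With no filter on low counts, edgeR gave a log2 fold change of -2.90 (adjusted p = 0.000464).

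TBK1 and IKK-epsilon are the kinases that MAVS recruits. Ikbke, the inducible one, was at 29.7, 23.1, 22.5 and 19.6 CPM in untreated and 91.8, 96.8 and 295 CPM in treated splenic PMN-MDSC. All treated libraries were higher, with S29 far above the other two, and the rise was 2.75 ± 0.42 (adjusted p = 0.00651). Without S29 it was 1.99 and still passed the test. In splenic M-MDSC Ikbke was at 117, 99.2, 73.0 and 111 CPM in untreated and 335, 373, 367 and 266 CPM in treated libraries, a rise of 1.69 ± 0.17 (adjusted p = 0.000201). In tumor it was already high in untreated mice and treated libraries overlapped with untreated ones. There PMN-MDSC were at 157 to 279 CPM in untreated and 227 to 598 CPM in treated libraries (0.73 ± 0.30, adjusted p = 0.235) and M-MDSC at 150.4 to 235 CPM and 213 to 367 CPM (0.51 ± 0.25, adjusted p = 0.298). Tbk1 moved little in comparison. It passed the test only in splenic M-MDSC, at 77.4, 78.9, 86.6 and 91.0 CPM in untreated and 126, 142, 132 and 127 CPM in treated libraries (0.61 ± 0.10, adjusted p = 0.00286), a call lost in the fit over all 9 groups (adjusted p = 0.0788). In the other comparisons its log2 fold change was 0.44 ± 0.21 (splenic PMN-MDSC, adjusted p = 0.212), 0.44 ± 0.20 (tumor PMN-MDSC, adjusted p = 0.280) and 0.23 ± 0.21 (tumor M-MDSC, adjusted p = 0.602).

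Among the RNA-binding effectors, Eif2ak2 encodes PKR, which phosphorylates the initiation factor eIF2-alpha and arrests translation. In splenic PMN-MDSC it was at 83.6, 50.5, 88.1 and 76.4 CPM in untreated and 203, 311 and 297 CPM in treated libraries, which did not overlap (1.87 ± 0.23, adjusted p = 0.00327). It rose less in splenic M-MDSC, from 107 to 112 CPM in untreated to 171 to 232 CPM in treated libraries (0.84 ± 0.12, adjusted p = 0.00118), and by 1.05 ± 0.19 in tumor PMN-MDSC (adjusted p = 0.0137). Adar encodes ADAR1, which edits adenosine to inosine in double-stranded RNA. It was at 243 to 302 CPM in untreated and 475 to 674 CPM in treated splenic PMN-MDSC (1.19 ± 0.19, adjusted p = 0.00756). Adar also rose in splenic M-MDSC (0.91 ± 0.13, adjusted p = 0.00151) and tumor PMN-MDSC (0.94 ± 0.21, adjusted p = 0.0346).

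Zbp1 encodes a sensor of Z-form nucleic acids that signals to necroptosis through RIPK3. In splenic PMN-MDSC it was at 64.7, 193, 65.2 and 51.6 CPM in untreated and 547, 1221 and 857 CPM in treated libraries. Even the highest untreated library, S05, was far below the treated ones, and the rise of 3.22 ± 0.51 (9.34-fold, adjusted p = 0.00772) was the largest among the tested genes of the 10 in these cells. Without S05 the log2 fold change was 3.87. In splenic M-MDSC Zbp1 was at 107 to 226 CPM in untreated and 432 to 825 CPM in treated libraries (1.97 ± 0.27, adjusted p = 0.00128). In tumor PMN-MDSC it was at 56.8 to 83.8 CPM and 157 to 335 CPM (1.93 ± 0.25, adjusted p = 0.0018). In tumor M-MDSC the treated libraries were at 417, 157 and 364 CPM, and S28, at 157 CPM, lay within the untreated range of 105 to 171 CPM. The difference there was 1.15 ± 0.33 and did not pass the test (adjusted p = 0.0912), nor did those of Adar (0.64 ± 0.21, adjusted p = 0.130) and Eif2ak2 (0.42 ± 0.19, adjusted p = 0.262).

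**Figure D2:**
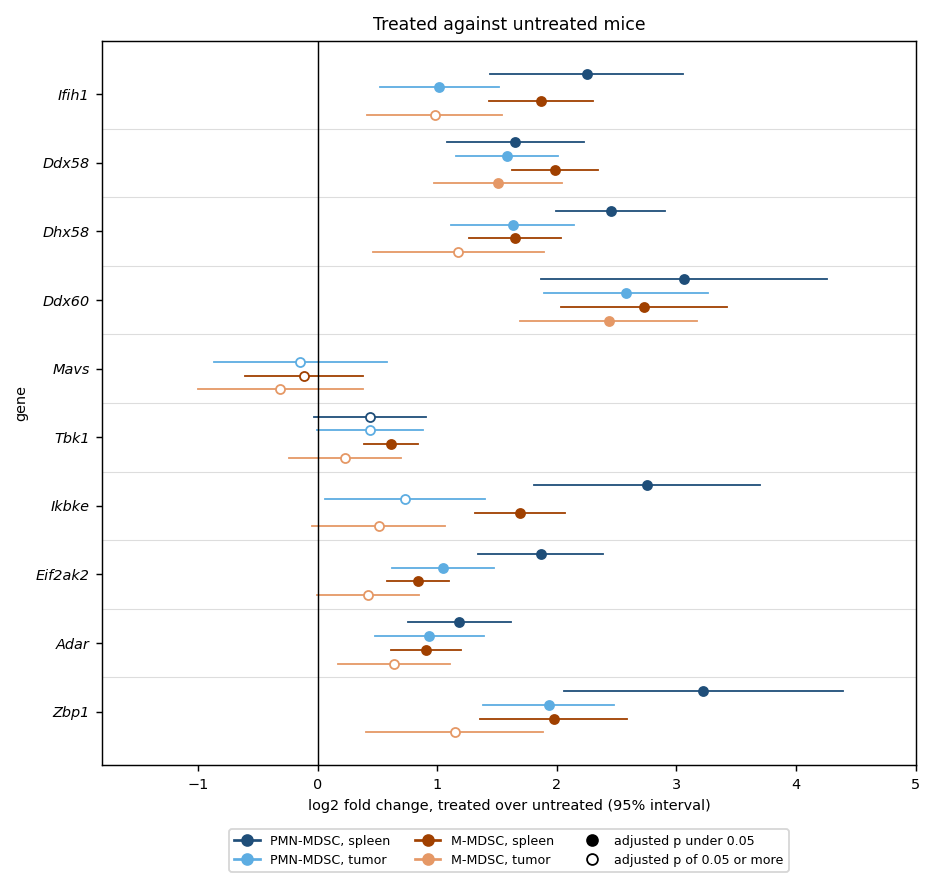
Log2 fold change of treated over untreated libraries for the 10 genes in the 4 comparisons, with the 95% interval of the edgeR fit. Filled points passed the test at an adjusted p under 0.05 and open points did not. In each gene except Mavs all estimates are above 0, Ddx60 is filled in all 4 comparisons, and Mavs in splenic PMN-MDSC is not drawn because it was not tested.

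In tumor M-MDSC the number of genes called depended on single libraries. It was 6 without the treated library S28, 1 without the untreated libraries S04 or S24 or the treated library S32, and 0 without the untreated library S20. The count over all genes moved as well, ranging from 30 to 505 with 1 library left out, against 241 with all of them. S28 had a summed macrophage marker level of 28604 CPM, against 5184 and 10801 CPM in the other treated libraries of the group, and the lowest level among them of Ifih1, Ddx58, Dhx58, Tbk1, Eif2ak2, Adar and Zbp1. S28 also had the lowest level of the monocyte marker Ly6c2, at 2.98 CPM against a group median of 443 CPM. For this library, too, the name M-MDSC is kept only as the label of the sort. DESeq2 called 5 genes, and it also called more of all genes than edgeR did, as given below. In tumor PMN-MDSC, Ifih1 lost the call without any 1 of S03, S07, S11, S19 or S23 (adjusted p up to 0.111), Adar without any 1 of S03, S07, S11, S15, S19 or S23 (adjusted p up to 0.115) and Eif2ak2 without S07 or S19 (adjusted p up to 0.0607), so that 4 instead of 7 genes were called without S07 or S19. Over all genes the count there was 110 to 276 with 1 library left out, against 279. In splenic M-MDSC 9 genes remained called, and in splenic PMN-MDSC 8, whichever library was left out. At the stricter threshold of an adjusted p under 0.001 and at least 2-fold, 5 genes were called in splenic M-MDSC (Ifih1, Ddx58, Dhx58, Ddx60 and Ikbke, background 1.82%) and 0 by edgeR in splenic PMN-MDSC, tumor PMN-MDSC and tumor M-MDSC (backgrounds 0.0413%, 0.241% and 0.012%), where 8, 8 and 6 genes had an unadjusted p under 0.05, beside 27.4%, 18.2% and 19.2% of all tested genes. The zeros depend on the test. By DESeq2, which the authors used, the same threshold called 8 genes in splenic PMN-MDSC (background 3.79% called higher), 5 in tumor PMN-MDSC (1.67%), 6 in splenic M-MDSC (4.27%) and 2 in tumor M-MDSC (1.65%), an alternative chosen after seeing the data.

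Markers of other cell types moved with treatment in the same libraries. Marker levels, here and elsewhere, are CPM scaled by library size alone, without the TMM scaling used for the sensing genes. In splenic PMN-MDSC the summed level of 6 macrophage markers was 415 to 1303 CPM in untreated and 65.2 to 176 CPM in treated libraries, and 6 of 6 were called lower. That of 6 dendritic cell markers was 840.1 to 3409 CPM and 48.2 to 70.5 CPM, where both tested genes of the list (Cd74 and H2-Ab1) were called lower, and 4 of 10 neutrophil markers (Ly6g, Mmp8, Retnlg and S100a8) were called higher. No neutrophil marker was called lower, but the list did not move one way. Csf3r was at 5473 to 7909 CPM in untreated and 1669 to 4938 CPM in treated libraries, and the medians of Ltf (5663 and 4373 CPM) and Camp (544 and 375 CPM) were lower too. Sums of 3 erythroid markers (46.3 to 142 against 0 to 3.84 CPM) and 4 B cell markers (25.1 to 63.1 against 8.32 to 22.6 CPM) were lower too in treated libraries. Library S01, which held most Mavs counts, had the highest macrophage (1303 CPM), dendritic cell (3409 CPM) and monocyte (2071 CPM) sums among the untreated ones. In splenic M-MDSC the dendritic cell sum was 1792 to 3988 CPM in untreated and 257 to 632 CPM in treated libraries, the macrophage sum 807 to 1052 CPM and 316 to 605 CPM, and the erythroid sum 20.9 to 60.0 CPM and 0.68 to 2.91 CPM. The macrophage list split there, since Apoe and Mrc1 were called lower and C1qb and C1qc higher. In tumor PMN-MDSC the neutrophil sum was 1069 to 4521 CPM in untreated and 4091 to 10333 CPM in treated libraries, and none of the 10 markers was called. Mmp8 (13.3 to 78.7 against 131 to 1794 CPM) and Retnlg (14.6 to 86.3 against 104 to 740 CPM) were higher in treated libraries without overlap, while the other markers of the list overlapped. The dendritic cell sum in tumor PMN-MDSC was 5249 to 7816 CPM in untreated and 398 to 2595 CPM in treated libraries. The summed level of 6 monocyte markers was also lower in treated libraries without overlap, at 6329 to 9976 CPM against 3233 to 4556 CPM in splenic M-MDSC, 4362 to 8735 CPM against 1208 to 2758 CPM in tumor PMN-MDSC and 10746 to 14150 CPM against 1983 to 5362 CPM in tumor M-MDSC. Its members did not move one way, since Fn1 was called lower in these 3 comparisons and Ccr2 in splenic M-MDSC and tumor PMN-MDSC, while Ly6c2 was called higher in those 2, at 119 to 202 CPM in untreated and 785 to 1014 CPM in treated splenic M-MDSC. In tumor M-MDSC the macrophage sums overlapped (3369 to 8319 CPM in untreated, 5184 to 28604 CPM in treated libraries), and none of the 6 markers was called. Of these, C1qa (125 to 334 against 380 to 2192 CPM), C1qb (194 to 455 against 456 to 1822 CPM) and C1qc (118 to 323 against 386 to 1941 CPM) were higher in treated libraries without overlap. The part of these markers in the results for the sensing genes was not tested, and in sorted samples, as in bulk tumor, fewer cells of a type and less RNA per cell cannot be told apart.

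Whether the response differed between compartments or cell types was tested with an interaction term. In PMN-MDSC the response of Ikbke was smaller in tumor than in spleen (log2 difference -2.0 ± 0.52, adjusted p = 0.0455), the only gene of the 10 to pass, beside 3.5% of all genes called in either direction. The adjusted p exceeded 0.05 in 12 of the 15 fits that left out 1 library, and without S29 the difference was -1.31. The difference of Mavs was larger in size, at 2.81 ± 0.86, and did not pass (adjusted p = 0.0867), though it did by DESeq2, with no filter and in the fit over all 9 groups. It rests on the few splenic counts given above, and Mavs passed the count filter there only through the tumor libraries. In M-MDSC 0 of the 10 genes passed (background 0.79%), with edgeR, although 2 had an unadjusted p under 0.05 (14.2% of all genes) and DESeq2 called 1. There Ikbke had the largest difference, at -1.16 ± 0.30 (adjusted p = 0.0921). In spleen, 3 genes passed the test of a difference between cell types (background 10.9%), of which Mavs met the count filter only through the M-MDSC libraries. The rise was smaller in M-MDSC than in PMN-MDSC for Eif2ak2 (-1.11 ± 0.26, adjusted p = 0.0174) and Dhx58 (-0.89 ± 0.27, adjusted p = 0.0460). For Mavs the difference was 2.77 ± 0.80 (adjusted p = 0.0396), from the few counts given above, which lay below the filter in splenic PMN-MDSC. The fit over all 9 groups lost the calls of Eif2ak2 and Dhx58, and that of Dhx58 was also lost with RLE scaling, upper-quartile scaling and no filter. The call of Dhx58 was lost in 12 and that of Mavs in 10 of 15 fits that left out 1 library, and without S01 the difference of Mavs was 1.97. Without S05 the response of Zbp1 passed the test in both of these comparisons with splenic PMN-MDSC, at -1.94 for tumor PMN-MDSC and -1.98 for splenic M-MDSC. In tumor 0 of the 10 genes differed between cell types by edgeR (background 0.0239%), 1 had an unadjusted p under 0.05 (8.59% of all genes), and DESeq2 called 0. These comparisons share libraries with those of treatment.

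In untreated mice the levels of some of these genes differed between spleen and tumor. Ikbke showed the largest difference in PMN-MDSC, at 19.6 to 29.7 CPM in spleen and 210, 157, 279 and 178 CPM in tumor. The groups were far apart, and tumor was higher by 3.21 ± 0.22 (9.22-fold, adjusted p = 3.13e-06). In the opposite direction, Ddx58 (209 ± 33.8 CPM in spleen, 78.7 ± 11.7 CPM in tumor, SD, n = 4 each), Ddx60 (135 ± 61.1 and 41.7 ± 7.78 CPM) and Adar (267 ± 27.6 and 120.2 ± 20.4 CPM) were lower in tumor, by log2 differences of -1.30 ± 0.20, -1.57 ± 0.34 and -1.05 ± 0.18 (adjusted p = 0.000333, 0.00275 and 0.000529). For Ddx60 the groups overlapped, because S05 from spleen was at 43.8 CPM. With 4 of 10 genes called beside 59.1% of all genes, these genes did not stand out from the others in this comparison. The neutrophil and macrophage marker sums given above differed between the same libraries, with 10 of 10 neutrophil markers lower and 6 of 6 macrophage markers higher in tumor, and their part was not tested.

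In untreated M-MDSC the same comparison called 3 of 10 genes, near the background of 28.4%, so by number these genes did not stand out here either. Ikbke was higher in tumor (100.02 ± 19.4 CPM in spleen, 183 ± 36.5 CPM in tumor, 0.91 ± 0.17, adjusted p = 0.00197), as was Tbk1 (83.5 ± 6.43 and 108 ± 9.17 CPM, 0.41 ± 0.13, adjusted p = 0.0320), and Adar was lower (201 ± 6.52 and 144 ± 14.6 CPM, -0.44 ± 0.11, adjusted p = 0.0103). The call of Tbk1 was lost without any 1 of S02, S06, S18, S20 or S22, with upper-quartile scaling and with no filter, and the fit over all 9 groups lost those of Tbk1 and Adar. Ifih1, Dhx58, Ddx60 and Zbp1 had log2 differences between -0.13 and 0.13, with 95% intervals from -0.59 to 0.46 among them. Marker sums of the same libraries did not overlap between spleen and tumor, for neutrophil (4097 to 10326 against 247 to 788 CPM), macrophage (807 to 1052 against 3369 to 8319 CPM) and monocyte markers (6329 to 9976 against 10746 to 14150 CPM), and their part was not tested.

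Between the cell types, 7 of 10 genes differed in untreated spleen, near the background of 64.4%, so by number these genes did not stand out from the others. M-MDSC had more Ikbke (2.11 ± 0.20, adjusted p = 2.3e-05), Dhx58 (0.66 ± 0.15, adjusted p = 0.00419), Eif2ak2 (0.58 ± 0.17, adjusted p = 0.0142) and Mavs (1.27 ± 0.46, adjusted p = 0.0342). They had less Ddx60, at 21.2 to 31.9 CPM against 43.8 to 173 CPM in PMN-MDSC (-2.30 ± 0.38, adjusted p = 0.000617), less Ddx58 (-0.86 ± 0.14, adjusted p = 0.00068) and less Adar (-0.36 ± 0.12, adjusted p = 0.0193). The call of Mavs was lost without any 1 of S02, S05, S06, S17, S21 or S22, while without S01 its difference was 2.07, and that of Adar without S02 or S22. Adar also lost it with no filter (adjusted p = 0.103) and with upper-quartile scaling, which gave -0.12 (adjusted p = 0.428), and Eif2ak2 in the fit over all 9 groups (adjusted p = 0.0624). In untreated tumor 4 of 10 genes differed (background 13%). Zbp1 (0.95 ± 0.19, adjusted p = 0.00589), Dhx58 (0.92 ± 0.23, adjusted p = 0.0190) and Eif2ak2 (0.68 ± 0.16, adjusted p = 0.0150) were higher in M-MDSC, and Ddx60 was lower (-0.79 ± 0.23, adjusted p = 0.0355). Only 1 of these calls was made without S07 and 2 without S08, S19 or S23. The fit over all 9 groups kept that of Dhx58 alone, and Ddx60 lost it with no filter as well. Marker sums differed without overlap between tumor PMN-MDSC and tumor M-MDSC, for macrophage (9749 to 13299 against 3369 to 8319 CPM), neutrophil (1069 to 4521 against 247 to 788 CPM) and monocyte markers (4362 to 8735 against 10746 to 14150 CPM), as did neutrophil (22674 to 41100 against 4097 to 10326 CPM) and monocyte sums (667 to 2071 against 6329 to 9976 CPM) between the cell types in spleen. Their part was not tested.

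Bulk tumor held low levels of the sensors. Ifih1 was at 15.9, 26.2, 31.5 and 42.1 CPM and Ddx58 at 20.4, 37.1, 36.4 and 34.0 CPM, below every MDSC library. Dhx58 was at 1.76, 4.45, 3.01 and 4.76 CPM, 10.3-fold lower than in tumor PMN-MDSC and 18.6-fold lower than in tumor M-MDSC of untreated mice (log2 differences -3.36 ± 0.31 and -4.22 ± 0.37, adjusted p = 1.69e-06 and 1.29e-06). Ikbke, at 19.8 to 28.4 CPM, was 10.2-fold and 8.31-fold lower (adjusted p = 3.68e-08 and 9.97e-08), and Zbp1, at 6.62 to 29.5 CPM, 3.96-fold and 7.32-fold lower (adjusted p = 0.000771 and 4.29e-05). Mavs was lower too, by log2 differences of -0.57 ± 0.20 and -1.19 ± 0.24 (adjusted p = 0.0217 and 0.0010). The call of Mavs against PMN-MDSC was lost without any 1 of S07, S41, S45 or S46, and with upper-quartile scaling, with no filter and in the fit over all 9 groups. Eif2ak2 alone was higher in bulk tumor, at 167, 440.4, 173 and 145 CPM (1.74 ± 0.36 and 1.13 ± 0.34, adjusted p = 0.00132 and 0.0110). Library S42 held the highest level, and without it the differences were 1.201 and 0.59, both still called. In all, 7 of 10 genes were called in each comparison, 6 lower and 1 higher. This was near the share of all genes called in either direction, 69.5% against PMN-MDSC and 69.2% against M-MDSC. Of all genes, 3711 of 11138 and 3420 of 11022 were called lower. Tbk1, at 65.8 to 211 CPM, did not pass the test (0.20 ± 0.31 and 0.09 ± 0.30), nor did Adar or Ddx60. Several marker sums differed without overlap between bulk tumor and the untreated tumor MDSC. Epithelial markers were at 4923 to 6690 CPM in bulk tumor, 126 to 762 CPM in PMN-MDSC and 99.0 to 328 CPM in M-MDSC. In the same order, fibroblast markers were at 537 to 748, 16.4 to 28.7 and 1.26 to 18.2 CPM. Macrophage markers were at 802 to 1414, 9749 to 13299 and 3369 to 8319 CPM. Their part was not tested.

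**Figure D3:**
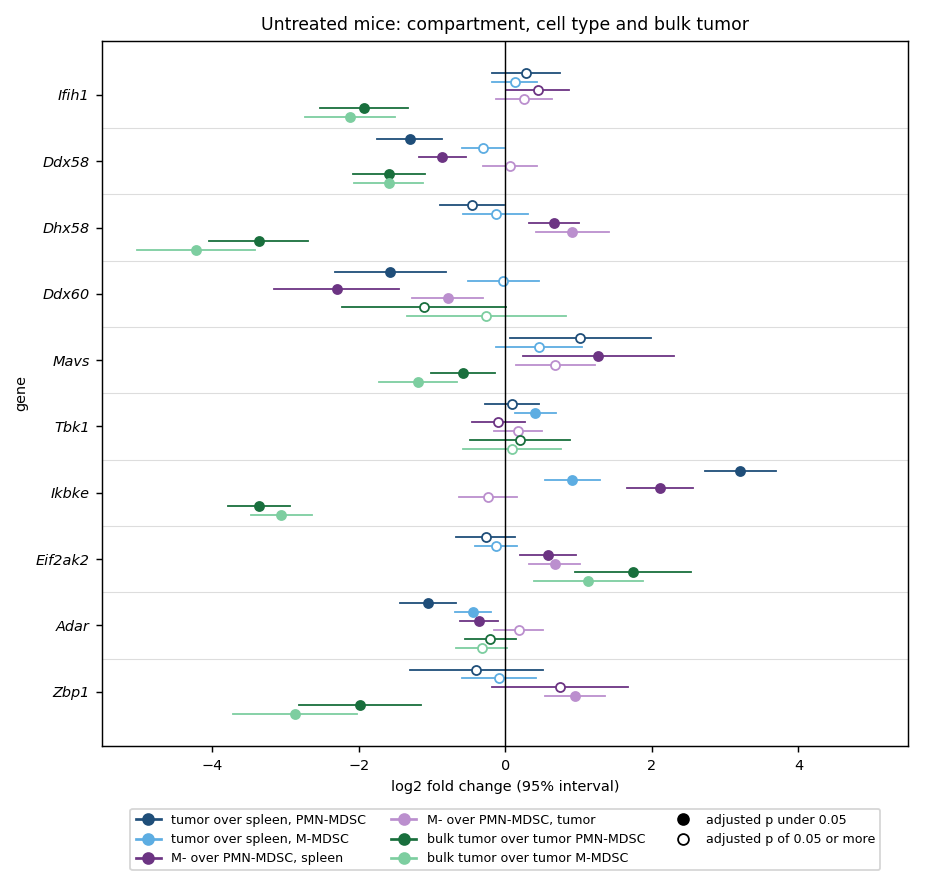
Log2 fold changes among untreated groups for the 10 genes, with the 95% interval of the edgeR fit: tumor over spleen, M-MDSC over PMN-MDSC, and bulk tumor over tumor MDSC. Filled points passed the test at an adjusted p under 0.05 and open points did not. Ikbke lies at 3.21 for tumor over spleen in PMN-MDSC and at -3.36 and -3.06 for bulk tumor over tumor MDSC, and the bulk tumor points of Dhx58 lie at -3.36 and -4.22.

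Over the 9 groups, the mean level of Ifih1 ranged from 28.9 CPM in bulk tumor to 406 CPM in treated splenic M-MDSC, and neighbouring treated groups overlapped. The 4 treated MDSC groups ranked above all untreated ones for Ifih1, Ddx58, Dhx58, Ddx60 and Zbp1, although the lowest treated group and the highest untreated one overlapped for Ddx58, Dhx58, Ddx60 and Zbp1. Ikbke ranked differently, with untreated tumor PMN-MDSC (206 ± 53.3 CPM) and M-MDSC (183 ± 36.5 CPM) above treated splenic PMN-MDSC (161 ± 116 CPM, SD, n = 3). For Mavs, treated splenic PMN-MDSC were last (1.44 ± 0.86 CPM, SD, n = 3) and untreated tumor M-MDSC first (37.0 ± 10.4 CPM), with overlap between all neighbours except the last pair.

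To compare the genes with each other, levels were divided by summed exon length (FPKM). Zbp1 had the highest level of the 10 genes in the 4 treated groups and in both untreated M-MDSC groups, at 248 ± 95.6 FPKM in treated splenic PMN-MDSC (SD, n = 3). Adar led in untreated splenic PMN-MDSC (32.9 ± 3.40 FPKM, SD, n = 4), Tbk1 in untreated tumor PMN-MDSC (23.1 ± 3.51 FPKM) and Eif2ak2 in bulk tumor (45.3 ± 27.3 FPKM). Mavs was last or next to last in the 8 MDSC groups, at 0.43 to 11.1 FPKM, whereas in bulk tumor Dhx58 was last at 1.07 FPKM.

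The patterns most like that of Ifih1 over the 9 group means, by Pearson correlation of log2(CPM + 1) among 9793 genes, were those of Il15ra (r = 0.989), Sppl2a, Parp12, Oas1g (each r = 0.987) and Zbp1 (r = 0.986). Among the 5 most like Mavs were Parp1 (r = 0.991), Heatr1 (r = 0.989), Ddx39b and Aco1 (each r = 0.987). These are descriptions over 9 means that share the scaling and the groups.

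A list of 54 other genes of the pathway was read in the same fits. In splenic PMN-MDSC 5 rose and 1 fell of 38 tested, in tumor PMN-MDSC 1 rose of 43, in splenic M-MDSC 12 rose and 2 fell of 45, and in tumor M-MDSC 2 rose of 45. In either direction these were 6 genes beside 11.6% of all genes, 1 beside 3.36%, 14 beside 19.6% and 2 beside 2.88%. The list's median log2 fold change was 0.23, -0.02, 0.09 and -0.07. The transcription factor Irf7, which amplifies interferon transcription, rose in all 4 comparisons. It was at 165 to 330 CPM in untreated and 1134 to 2314 CPM in treated splenic PMN-MDSC (2.75 ± 0.31, adjusted p = 0.0028) and at 36.3 to 68.8 CPM and 513 to 910 CPM in tumor PMN-MDSC (3.88 ± 0.26, adjusted p = 9.6e-05). In M-MDSC it rose by 2.95 ± 0.24 in spleen (adjusted p = 6.97e-05) and 3.01 ± 0.28 in tumor (adjusted p = 0.00216). Irf3, the constitutive partner, chosen after its values were seen, had log2 fold changes of -0.47, -0.02, -0.12 and -0.07, none of which passed the test.

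Among products of the pathway, Cxcl10, a chemokine that attracts T cells, rose in spleen, from 1.45 to 6.69 CPM in untreated to 19.8 to 64.2 CPM in treated PMN-MDSC (3.82 ± 0.54, adjusted p = 0.0050) and from 9.39 to 15.04 CPM to 114 to 484 CPM in M-MDSC (4.36 ± 0.48, adjusted p = 0.000478). In tumor it was at 69.3 to 122 CPM in untreated and 83.4 to 227 CPM in treated PMN-MDSC and did not pass the test in either cell type. The 4 interferon genes on the list (Ifnb1, Ifna4, Ifnl2 and Ifnl3) were too low to test, with at most 3.25 CPM in any MDSC library, so that a change in them was not detectable at this depth.

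Other genes of the list moved in single comparisons. In splenic M-MDSC Tank, an adaptor of TBK1, rose (1.33 ± 0.20, adjusted p = 0.00202), whereas Tbkbp1, another binding partner of TBK1 (-1.24 ± 0.22, adjusted p = 0.0042), and Traf5, a ubiquitin ligase of TNF receptor signalling (-0.69 ± 0.21, adjusted p = 0.0431), fell. The call of Traf5 was lost without any 1 of 6 of the 8 libraries. In splenic PMN-MDSC Casp8 rose (1.10 ± 0.22, adjusted p = 0.0172) and the helicase Ddx21 fell (-1.59 ± 0.40, adjusted p = 0.0360). These 2 calls were lost without S21 or S29, and that of Ddx21 also without S25. In tumor M-MDSC Tlr3, the endosomal receptor of double-stranded RNA, was at 2.45 to 5.49 CPM in untreated and 18.7 to 36.7 CPM in treated libraries (2.75 ± 0.35, adjusted p = 0.00848).

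**Figure D4:**
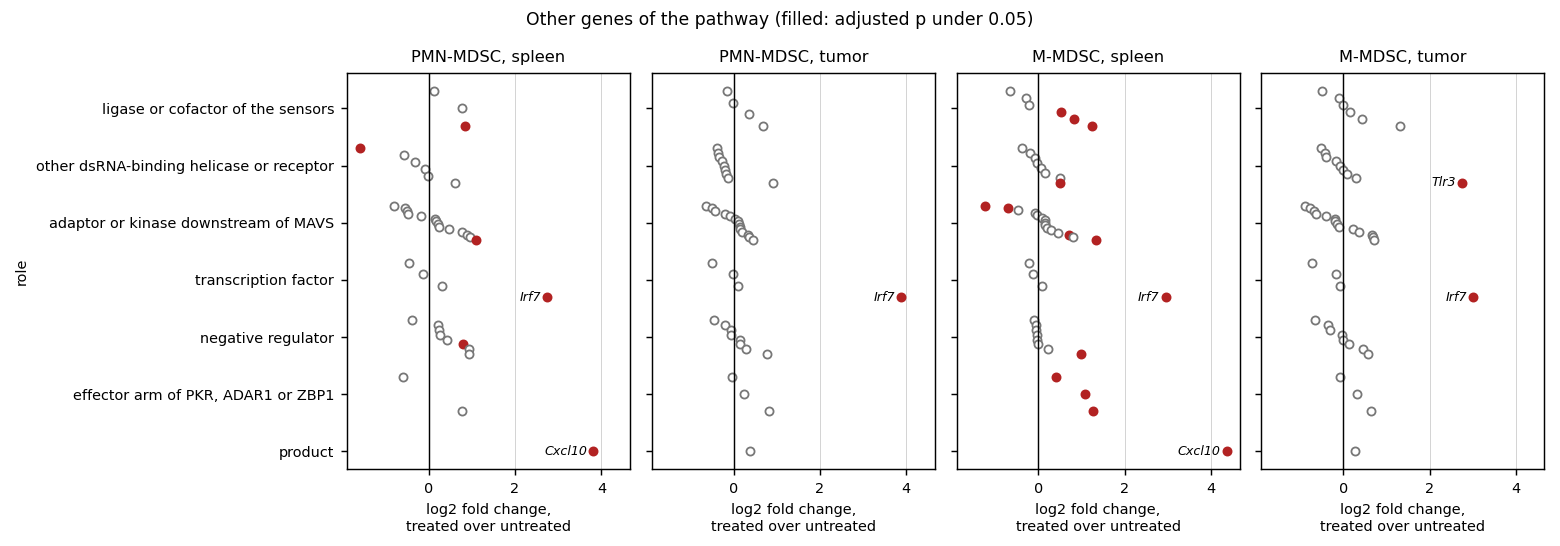
Log2 fold change of treated over untreated libraries for the tested genes of the list of 54, by role, in the 4 comparisons. Each point is a gene, filled where the adjusted p was under 0.05, and called genes with a change of over 2 on the log2 scale are named. Irf7 lies between 2.75 and 3.88 in all 4 panels, Cxcl10 at 3.82 and 4.36 in spleen, and most other genes lie close to 0.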

How the data were processed

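The deposited table held unnormalized fragment counts of genes, with a column for each library, made by the authors. Per their methods, reads were mapped to mm10 with ContextMap and BWA and counted by strand with featureCounts (Subread 1.4.6-p3 per the labels' processing notes). The libraries were amplified by PCR and no molecular identifiers are described, so intervals from counts cover counting error only.

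The name of each column (cell type, organ, treatment) gave its group, with G read as PMN-MDSC. The labels number the mice but the columns do not, so p-values measure the spread between libraries. By the labels, the same mouse numbers recur in spleen and tumor, in both cell types and, for untreated mice, in bulk tumor. The groups compared between compartments, between cell types, with bulk tumor and in the interaction tests therefore share mice, and these tests treat the libraries as independent. Libraries of a group were compared in 48 pairs to look for copies, and chi-square divided by its degrees of freedom lay between 6.19 and 49.5, with 0 identical pairs. The 10 genes and the lists were chosen with earlier results of these data known.

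Each comparison was fitted on its own libraries with edgeR 4.0.16 (R 4.3.3, TMM scaling, robust quasi-likelihood F-test, two-sided), on genes averaging 25 counts or more, with Benjamini-Hochberg adjustment over all genes tested, at 0.05. This differs from the authors' DESeq2 threshold (adjusted p under 0.001 and at least 2-fold), which is among the alternatives, with DESeq2 1.42.0, RLE and upper-quartile scaling, no filter, a fit over the 9 groups and leaving out each library. 14 comparisons were made. CPM of the sensing genes and of the named pathway genes was scaled by TMM over 34 libraries. That of the marker genes and their sums was scaled by library size alone. TMM factors were 0.68 to 0.77 in treated splenic PMN-MDSC and 1.14 to 1.19 in untreated splenic M-MDSC. The CPM of markers and of sensing genes are therefore on different scales. Whether close marker ranges depend on the scaling was not tested. FPKM was computed from the counts and GENCODE M21 exon lengths. The code was tested on simulated counts.

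Named were the 10 genes, of the list up to 3 genes with the smallest adjusted p called higher and up to 3 called lower in each treatment comparison, and the 5 genes most like Ifih1 and most like Mavs, except that 1 gene of the latter and part of the tumor line's genotype are not reported here.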

Additional observations from a re-analysis of the deposited data

Results flagged for a closer look

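In groups of 4 libraries, a library was compared with the others by its gap to the nearest one over the whole range (Dixon's ratio). Of 70 groups tested 6 were marked, and chance alone marks about 1 in 20. In untreated splenic PMN-MDSC the same library, S05, was lowest for Ifih1 (51.09 CPM against 90.18 to 91.78) and Ddx60 (43.79 CPM against 154.5 to 173.1) and highest for Zbp1 (193.4 CPM against 51.64 to 65.22). Ddx60 was highest in S31 of treated tumor PMN-MDSC (455.6 CPM against 182.2 to 215.2). Eif2ak2 was lowest in S07 of untreated tumor PMN-MDSC (46.67 CPM against 60.05 to 61.94) and highest in S42 of bulk tumor (440.4 CPM against 145.2 to 173.0).

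The response to treatment differed between groups, by an interaction term with an adjusted p under 0.05, in 4 cases. In PMN-MDSC the response of Ikbke differed between tumor and spleen by -2.0 on the log2 scale. In spleen the response of M-MDSC differed from that of PMN-MDSC by -1.11 for Eif2ak2, -0.89 for Dhx58 and 2.77 for Mavs, which held 1 to 4 counts in treated splenic PMN-MDSC and met the count filter only through the M-MDSC libraries.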

How the results depend on the processing

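Of 2369 values of single genes under the alternatives, 2106 kept direction and side of the threshold, 163 lost the call, 44 gained one and 56 changed sign. All 56 changes of sign concerned values that had not passed the test, and the cause was not tested. At the stricter threshold, applied to edgeR, the count of sensing genes called fell to 0 in splenic and tumor PMN-MDSC, 5 in splenic and 0 in tumor M-MDSC, 0 for tumor against spleen in M-MDSC, 2 and 0 for M-MDSC against PMN-MDSC in spleen and tumor, and 0 for the response in tumor against spleen in PMN-MDSC and in M-MDSC against PMN-MDSC in spleen. In tumor M-MDSC 5 genes were called by DESeq2, without the filter and in the fit over all 9 groups. For the response in tumor against spleen, DESeq2 called 2 genes in PMN-MDSC and 1 in M-MDSC, no filter 4 and 1, and the fit over 9 groups 2 in PMN-MDSC. That fit called 1 gene each for tumor against spleen in M-MDSC, M-MDSC against PMN-MDSC in untreated tumor, and the response in M-MDSC against PMN-MDSC in spleen. Of the pathway list, the stricter threshold left 0, 2 and 0 genes in splenic PMN-MDSC, splenic M-MDSC and tumor M-MDSC. No filter gave 11 and 3 in splenic and tumor PMN-MDSC, the fit over 9 groups 12 and 2 in these and 6 in tumor M-MDSC, and DESeq2 2 in tumor PMN-MDSC and 4 in tumor M-MDSC.

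With 1 library left out, the counts of sensing genes were 8 to 8 and 4 to 7 in splenic and tumor PMN-MDSC, 9 to 9 and 0 to 6 in splenic and tumor M-MDSC, 1 to 4 for M-MDSC against PMN-MDSC in tumor, 0 to 2 and 0 to 1 for the response in tumor against spleen in PMN-MDSC and M-MDSC, and 1 to 4 for that in M-MDSC against PMN-MDSC in spleen. The count of the pathway list in splenic PMN-MDSC was 2 to 9, with 2 without S21 or S29 and 3 without S25. Counts over all genes ranged over 307 to 1001 and 110 to 276 in splenic and tumor PMN-MDSC, and 1089 to 1808 and 30 to 505 in splenic and tumor M-MDSC. DESeq2 called 1354 of all genes in splenic PMN-MDSC, 613 in tumor PMN-MDSC and 797 in tumor M-MDSC, against 844, 279 and 241.

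Signs changed under upper-quartile scaling for Ifih1 (-0.020, tumor against spleen in M-MDSC), Tbk1 (0.16, M-MDSC against PMN-MDSC in spleen), Adar (0.10, bulk tumor against PMN-MDSC; 0.035 with no filter), Ddx58 (0.048, response in tumor against spleen in PMN-MDSC) and Ifih1 (0.024, response in M-MDSC against PMN-MDSC in tumor). The sign of Tbk1 changed for tumor against spleen in PMN-MDSC with no filter (-0.0023) and for the response in this pair with DESeq2 (-0.051), RLE (-0.047) and the 9 groups (-0.014). With 1 library left out, the sign changed in the treatment effect of Mavs in tumor PMN-MDSC (-0.50 to 0.058) and splenic M-MDSC (-0.27 to 0.0037). It changed for tumor against spleen in Zbp1 in PMN-MDSC (-0.61 to 0.32) and, in M-MDSC, in Zbp1 (-0.24 to 0.17), Dhx58 (-0.26 to 0.013) and Ddx60 (-0.24 to 0.070), and in Ddx58 between cell types in tumor (-0.061 to 0.13). Bulk tumor values changed sign for Tbk1 (-0.18 to 0.45 and -0.29 to 0.42) and Ddx60 (-0.72 to 0.20). Differences of response changed sign in PMN-MDSC between compartments for Ddx58 (-0.25 to 0.23), Ddx60 (-0.90 to 0.088) and Tbk1 (-0.19 to 0.13) and in M-MDSC for Mavs (-0.35 to 0.0064). Between cell types they did so in spleen for Ddx60 (-0.78 to 0.17) and Tbk1 (-0.037 to 0.24) and in tumor for Ifih1 (-0.35 to 0.17), Ddx58 (-0.35 to 0.15), Ddx60 (-0.59 to 0.25), Mavs (-0.38 to 0.19) and Ikbke (-0.52 to 0.13).

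Upper-quartile scaling shifted the median of all genes by -0.17 for treatment in splenic PMN-MDSC, where it split the calls into 336 higher and 607 lower against 443 and 401, and by at most 0.30 in size elsewhere. No paired analysis was possible because the columns carry a running number and no mouse number, and mice were not assigned from the order of the columns. The count filter kept Mavs in splenic PMN-MDSC and the interferon genes, all at low counts, out of the test.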
